A study of Mus musculus with 100 samples.

Results

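The Trim5 and Trim12 restriction factor cluster was described in whole knee joints of 3 mouse strains. It comprises 7 genes of the count table, Trim12a, Trim12c, Trim5, Trim30a, Trim30d, Trim34a and Trim21, out of 17310 genes. The genes were chosen by name, and they were picked because Trim12a and Trim5 were near 0 in MRL/MpJ, so levels in MRL/MpJ against the other strains are given as a description without a test. All 7 genes passed the filter on low counts, which removed 0 genes.

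The joints came from MRL/MpJ, C57BL/6 (C57BL/6J in the study's methods) and STR/ort mice, labelled as 10 weeks old, which in the methods is the age at injury. No engineered allele is named, and the methods give isoflurane anaesthesia for the loading and buprenorphine analgesia after it. The right knee was injured by a single axial compression of the tibia at 10 to 12 N, which ruptures the anterior cruciate ligament. Joints of each strain were taken before injury (0D), and injured and contralateral uninjured joints were taken 1 day later (1D), after 1 week (1W) or after 2 weeks (2W). This gave 100 libraries in 21 groups of 4 or 5. MRL/MpJ mice are known for scarless ear wound healing, and STR/ort mice for spontaneous osteoarthritis. The labels name the animal of each joint at 2W only, and at the other times nothing in the labels says that the libraries of a group are separate animals, so that p values measure the spread between these libraries. The joint was whole tissue, so fewer cells of a type and less RNA per cell cannot be told apart.

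TRIM proteins are E3 ubiquitin ligases with a RING domain, B-boxes and a coiled coil, and many of them end in a B30.2 domain that binds the target. In primates TRIM5 binds the capsid of incoming retroviruses and blocks infection. Mice carry several relatives of TRIM5 in place of a single gene, among them Trim5, Trim12a, Trim12c, the Trim30 genes and the Trim34 genes, and many of these are induced by interferon. TRIM12A is known to lack the B30.2 domain. TRIM30A is known to dampen signalling from Toll-like receptors to NF-kB, and TRIM21 is a cytosolic receptor for the constant part of antibodies that marks antibody-coated virus for destruction.

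On the mouse assembly GRCm38.p6 the members lie on chromosome 7. Trim34a (104244448 to 104262244) is on the plus strand. Trim5 (104263386 to 104288254), Trim12a (104299893 to 104315558), Trim12c (104338754 to 104353358), Trim30a (104409025 to 104465193) and Trim30d (104470014 to 104507853) follow on the minus strand. These 6 genes span 263 kb. Trim21 (102557920 to 102565482, minus strand) lies 1.68 Mb away and is the only member outside the cluster.

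The coding sequences of Trim12a, Trim5 and Trim12c are near copies of each other, which matters for the reading of the counts. The first 150 coding bases of the annotated transcripts (GENCODE, GRCm38) are shown because reads from such stretches can come from more than 1 gene. Capitals mark the bases that differ from Trim12a.
Trim12a: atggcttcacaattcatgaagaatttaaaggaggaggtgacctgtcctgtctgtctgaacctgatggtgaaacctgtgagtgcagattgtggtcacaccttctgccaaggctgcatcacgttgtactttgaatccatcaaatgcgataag
Trim5: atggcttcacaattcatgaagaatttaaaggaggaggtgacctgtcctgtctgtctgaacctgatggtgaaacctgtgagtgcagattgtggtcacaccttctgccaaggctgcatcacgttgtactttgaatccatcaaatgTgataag
Trim12c: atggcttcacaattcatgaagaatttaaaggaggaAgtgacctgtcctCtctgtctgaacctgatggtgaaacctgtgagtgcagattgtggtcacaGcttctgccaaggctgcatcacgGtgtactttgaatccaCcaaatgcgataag
Trim5 differed from Trim12a at 1 of these 150 bases and Trim12c at 5, while the more distant Trim30d differed at 46. Over the first 600 coding bases the identity was 96.5% between Trim12a and Trim5, 96.0% between Trim12a and Trim12c, and 97.5% between Trim5 and Trim12c. Trim30a and Trim30d shared 89.5% over the same length. The annotated coding sequence of Trim12a is 891 bases long, against 1491 bases in Trim5 and Trim12c.

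Of all 50-base windows in the transcripts of Trim5, 36.3% also occur in another gene, most of them in Trim12c (23.5%). The share was 33% for Trim12c and 10.4% for Trim12a. Trim34a shared 39.8% of its windows with its copy Trim34b. The share was 5.98% for Trim30a, 7.49% for Trim30d and 0.216% for Trim21. Counts of Trim5, Trim12c and Trim34a are therefore uncertain where reads from copies could not be separated, and how the counting treated reads with several placements is not given in the sources used here. All strains were aligned to mm10, the C57BL/6J genome, so a low count in MRL/MpJ or STR/ort cannot be told apart from reads that were not placed.

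The region before the RefSeq start used here was also shared between the Trim5 relatives. A stretch of 90 bases from RefSeq (GRCm38.p6, 5′ to 3′ on the strand of the gene) is shown because Trim12a and Trim5, the genes near 0 in MRL/MpJ, are identical there. Capitals mark the bases of Trim12c that differ.
Trim12a (chr7:104315546-104315635): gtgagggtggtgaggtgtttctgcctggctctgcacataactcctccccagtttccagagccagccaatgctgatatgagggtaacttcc
Trim5 (chr7:104288216-104288305): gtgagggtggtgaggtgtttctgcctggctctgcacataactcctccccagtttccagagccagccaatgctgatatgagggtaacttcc
Trim12c (chr7:104353440-104353529): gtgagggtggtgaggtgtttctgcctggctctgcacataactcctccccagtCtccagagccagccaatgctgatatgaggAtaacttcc
Trim5 had 0 differences from Trim12a and Trim12c had 2 in this stretch. For Trim5 and Trim12a part of the stretch lies inside the gene positions given above, which end at other bases than the starts used here. The aligned windows of Trim12a and Trim5 were identical over 191 overlapping bases, while those of Trim12a and Trim12c differed at 38 of 210.

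The genes induced by type I interferon often carry the response element that interferon regulatory factors bind. The letters GAAANNGAAA, or TTTCNNTTTC on the other strand, were searched from 250 bases before to 50 bases after each start in RefSeq. Trim30a has 2 annotated windows and the other members have 1. With the starts used here, the letters occurred in 8 of 8 windows of the members, against 3.44% of 32851 windows of all genes. The first match of each member is shown with 10 bases on either side, because these letters occur near the start of all members, Trim21 included. Capitals mark the motif.
Trim34a (chr7:104244457-104244486): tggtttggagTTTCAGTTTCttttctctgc
Trim5 (chr7:104288136-104288165): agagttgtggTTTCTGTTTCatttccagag
Trim12a (chr7:104315466-104315495): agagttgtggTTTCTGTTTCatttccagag
Trim12c (chr7:104353359-104353388): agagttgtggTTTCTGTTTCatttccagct
Trim30a (chr7:104465210-104465239): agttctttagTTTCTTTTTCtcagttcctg
Trim30d (chr7:104507871-104507900): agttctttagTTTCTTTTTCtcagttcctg
Trim21 (chr7:102565450-102565479): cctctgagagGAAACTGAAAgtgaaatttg
Trim5 and Trim12a had the same 30 bases, and so had Trim30a and Trim30d. The first base of the match lay 49 bases before the start in Trim5, 29 in Trim12c, 36 in Trim30a and 41 in Trim30d. It lay 11 bases after the start in Trim12a, 11 in Trim34a and 14 in Trim21, where a second match at 20 overlapped it. In the second window of Trim30a it lay 3 bases after the start. The starts used for the windows differ from the 5′ ends of the gene positions given above for Trim5 (104288254) and Trim12a (104315558). Counted from those ends, the matches of Trim5 and Trim12a lie inside the gene, more than 50 bases after its end, and so outside the searched window. The motif was not in the windows of Trim34b, Trim30b, Trim30c, Trim6 and Trim68. A match is a description of the letters and not a bound site.

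Levels are given as CPM, the counts scaled to the size of each library with TMM factors. Total counts ranged from 6182016 to 20986027 per library with a median of 10582591. The 12 genes checked as markers of the knee joint, of cartilage, bone, the joint surface, tendon and skeletal muscle, were detected in every library, and the muscle genes Myh4 and Acta1 had the highest medians among them (22810 and 8040 CPM). The libraries of 0D, 1D and 1W form batch 1 in the labels (70 libraries) and those of 2W form batch 2 (30), and for 2W the effect of batch and that of time cannot be told apart.

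Trim12a was near 0 in MRL/MpJ and well expressed in the other strains. At 0D its level in the 4 MRL/MpJ libraries was 0.399, 0.465, 0.344 and 0.345 CPM. In C57BL/6 it was 39.7, 40.5, 39.5 and 48.8 CPM, and in STR/ort 43.5, 41.5, 35.1 and 36.0 CPM. The MRL/MpJ libraries lay far below all others, and C57BL/6 and STR/ort overlapped. Over all times and joints the level ranged from 0 to 1.11 CPM in MRL/MpJ (median 0.325), from 18.7 to 51.0 in C57BL/6 (median 40.0) and from 13.97 to 55.5 in STR/ort (median 35.0). The 33 MRL/MpJ libraries held 105 Trim12a counts in all, 4 of them held none, and no library held more than 11. Pooled over libraries, the level in C57BL/6 was 120.8 times that in MRL/MpJ and in STR/ort 108.1 times.

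Trim5 was a low gene in every strain and almost without counts in MRL/MpJ. At 0D it was at 0 in all 4 MRL/MpJ libraries. In C57BL/6 it was 3.26, 2.49, 2.74 and 2.65 CPM and in STR/ort 2.04, 2.25, 1.78 and 2.33 CPM. Of the 33 MRL/MpJ libraries 31 had 0 counts of Trim5, and the other two held 3 counts together. C57BL/6 had 825 counts in 34 libraries (0.643 to 3.81 CPM, median 2.56) and STR/ort 760 in 33 (0.469 to 4.52, median 2.25). The pooled ratio was 255.7 for C57BL/6 over MRL/MpJ (95% interval 87.2 to 1242) and 249.5 for STR/ort over MRL/MpJ (85.1 to 1213). These intervals cover counting error only and are no test between strains. They are wide because of the 3 counts in MRL/MpJ.

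Trim30d, a relative of Trim30a, was also low in MRL/MpJ. At 0D its level was 0.899, 0.698, 0.344 and 0.862 CPM in MRL/MpJ. It was 16.7, 17.1, 14.2 and 18.9 CPM in C57BL/6 and 14.6, 14.1, 10.8 and 11.7 CPM in STR/ort. No MRL/MpJ library reached 3 CPM at any time: the range was 0.345 to 2.30, against 14.2 to 24.7 in C57BL/6 and 7.31 to 19.1 in STR/ort. Over the 7 combinations of time and joint, the mean in C57BL/6 was 11.7 to 23.8 times and in STR/ort 8.53 to 18.2 times that in MRL/MpJ.

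Trim34a was lower in MRL/MpJ by a smaller factor. At 0D its level was 3.59, 2.91, 4.13 and 3.97 CPM in MRL/MpJ, 12.3, 11.3, 11.5 and 14.9 CPM in C57BL/6, and 12.4, 9.004, 8.56 and 11.7 CPM in STR/ort. The mean in C57BL/6 was 3.02 to 3.88 times and in STR/ort 1.95 to 2.85 times that in MRL/MpJ over the 7 combinations. Its copy Trim34b moved the other way, with 0.599 to 2.39 CPM in MRL/MpJ, 0 to 0.371 in C57BL/6 and 0 to 0.271 in STR/ort. Since 56.8% of the Trim34b windows also occur in Trim34a, how reads were divided between these copies was not tested.

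The other members were present in MRL/MpJ at levels nearer those of the other strains. Trim12c ranged from 56.2 to 73.1 CPM in MRL/MpJ (median 65.0), from 50.6 to 85.1 in C57BL/6 (67.9) and from 32.5 to 63.4 in STR/ort (48.0). Trim30a ranged from 17.8 to 38.5 CPM in MRL/MpJ (26.9), from 39.7 to 72.8 in C57BL/6 (52.5) and from 19.99 to 54.1 in STR/ort (35.8). Trim21 ranged from 9.67 to 23.0 CPM in MRL/MpJ (17.9), from 12.0 to 27.3 in C57BL/6 (21.8) and from 8.69 to 33.3 in STR/ort (16.3). Trim12c, which shares 96.0% of its first 600 coding bases with Trim12a, had mean levels in C57BL/6 of 0.878 to 1.19 times those in MRL/MpJ.

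**Figure D1:**
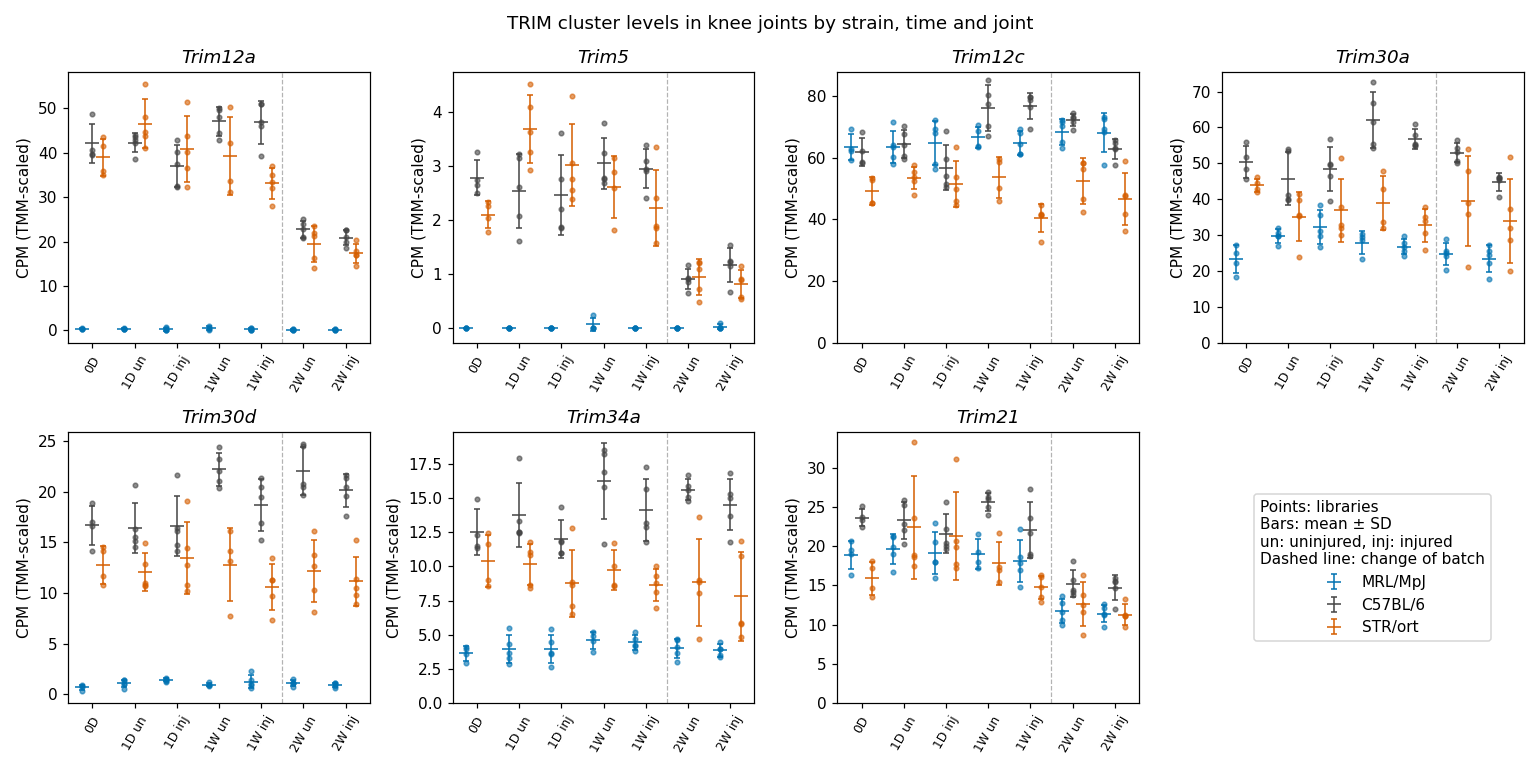
Levels of the 7 genes in CPM (vertical axis, linear, 1 panel per gene) by time and joint, with 1 point per library and bars for the mean ± SD of each strain; the dashed line separates the batches. The MRL/MpJ points of Trim12a, Trim5, Trim30d and Trim34a sat under those of both other strains at each time, those of Trim12c did not, and Trim12a, Trim5 and Trim21 stood lower in the second batch.

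Counted over the 7 combinations of time and joint, all MRL/MpJ libraries lay below all libraries of both other strains in 7 of 7 for Trim12a, Trim5, Trim30d and Trim34a, in 2 for Trim30a and in 0 for Trim12c and Trim21. Of the 7 genes this held for 5 at 0D (7.72% of all genes), 4 in uninjured joints at 1D (7.65%), 4 in injured joints at 1D (7.24%), 5 in uninjured joints at 1W (3.66%), 4 in injured joints at 1W (4.5%), and 4 in uninjured and 4 in injured joints at 2W (5.29% and 5.29%). This contrast chose the genes, and nothing is read from the counts.

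To compare genes with each other, levels were divided by the exon length of the annotation and are given as CPM per kilobase of exon. In C57BL/6 the medians were 18.2 for Trim12c, 12.8 for Trim30a, 6.91 for Trim12a, 5.88 for Trim21, 5.40 for Trim34a, 5.23 for Trim30d and 0.692 for Trim5. In MRL/MpJ they were 17.4 for Trim12c, 6.53 for Trim30a, 4.82 for Trim21, 1.53 for Trim34a, 0.281 for Trim30d, 0.0563 for Trim12a and 0 for Trim5. In STR/ort they were 12.8 for Trim12c, 8.72 for Trim30a, 6.05 for Trim12a, 4.40 for Trim21, 3.41 for Trim34a, 3.03 for Trim30d and 0.610 for Trim5. The order was the same in C57BL/6 and STR/ort over both batches pooled. In batch 2 alone it changed in C57BL/6, where Trim12a (3.76) stood below Trim34a (5.85), Trim30d (5.50) and Trim21 (4.05), and in STR/ort, where Trim12a (3.03) stood below Trim34a (3.26) and Trim21 (3.09). Over all libraries, in C57BL/6 the libraries of Trim12a, Trim21, Trim34a and Trim30d overlapped, as did those of Trim12c and Trim30a. Trim5 stood apart at the bottom in C57BL/6 and STR/ort, while in MRL/MpJ it overlapped Trim12a. The exon lengths were 5781 bases for Trim12a and 3690 for Trim5.

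The genes whose group means over the 21 groups were most like those of Trim12a, by Pearson correlation of log2 CPM among 15427 genes, were Ticam2 (0.986), an adaptor of Toll-like receptor signalling, Ighv9-3 (0.983), Ezh1 (0.982), 5033406O09Rik (0.982) and 1110019D14Rik (0.981). For Trim5 they were Igkv8-27 (0.983), Ighv1-55 (0.973), Zfp277 (0.968), 5033406O09Rik (0.966) and Dhx40 (0.966). Trim5 and Trim12a correlated at 0.982 with each other. The groups include those of MRL/MpJ, whose low levels chose both genes, so this likeness restates that choice. Each of these genes was lower in MRL/MpJ: Ticam2, for example, had group means of at most 2.73 CPM there and 9.49 to 14.1 CPM in the other strains. The points share libraries and batches, and no p is given.

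The injury comparison asked whether rupture of the ligament changed these genes in each strain. Called means an adjusted p below 0.05 in edgeR's quasi-likelihood test with Benjamini-Hochberg adjustment over all 17310 genes, and a fold change above 1.5. Trim12a and Trim5 were fitted in MRL/MpJ too and not called there, but with counts near 0 they were left out of the counting, which left 57 comparisons. Of these 0 were called, with 4 at an unadjusted p below 0.05 and 1 at an adjusted p below 0.05, and DESeq2 also called 0. Over all genes the shares called were 5.6%, 5.82% and 2.95% in C57BL/6 at 1D, 1W and 2W, 2.02%, 3.13% and 1.16% in MRL/MpJ, and 4.31%, 9.21% and 4.66% in STR/ort. The log2 difference of injured minus uninjured joints ranged from −0.42 to 0.43 over the members, with a median of −0.12, and it was below 0 in 45 of 57. The median over all genes lay between −0.033 and 0.006 in these 9 comparisons of joints.

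Trim12c, a full-length relative of Trim5, was the one member with an adjusted p below 0.05 after injury. With RUVg there were 4 such comparisons and with a block by replicate number 3, of Trim12c and Trim30a, all under the fold of 1.5. In STR/ort at 1W it was at 41.3, 41.4, 32.5, 44.7 and 41.8 CPM in injured joints and at 59.6, 45.9, 50.2 and 58.7 CPM in uninjured joints. No injured library reached an uninjured one. The log2 difference was −0.42 (SE 0.09, adjusted p = 0.000842), which is under the fold of 1.5. At the same time Trim12c differed by 0.04 (SE 0.08, adjusted p = 0.84) in C57BL/6 and by −0.01 (SE 0.09, adjusted p = 0.984) in MRL/MpJ. The test of the difference between STR/ort and C57BL/6 in this change gave −0.46 (adjusted p = 0.0677), with an adjusted p of 0.0309 in DESeq2, 0.042 with RUVg and 0.017 with the replicate block, under the fold of 1.5 in each.

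The other members had no adjusted p below 0.05 after injury without RUVg or the replicate block. In STR/ort at 1W Trim30a (−0.26, SE 0.11) and Trim21 (−0.27, SE 0.12) had adjusted p values of 0.0974 and 0.107. In STR/ort all 7 members were lower in injured joints at 1W and at 2W, while at 1D 5 were lower and 2 higher. Trim21 was below 0 in 9 of 9 injury comparisons, from −0.27 to −0.02. Trim34a ranged from −0.24 to 0.04 and Trim30a from −0.26 to 0.14. Trim30d ranged from −0.28 to 0.43, and its highest values came from MRL/MpJ, where its counts were low, with 0.43 (SE 0.29, adjusted p = 0.527) at 1D and 0.43 (SE 0.37, adjusted p = 0.698) at 1W. Trim12a ranged from −0.25 to 0.02 and Trim5 from −0.33 to 0.40 over the 6 comparisons in C57BL/6 and STR/ort.

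No difference between strains in the injury response of a member passed the test. Of 51 differences of the injury effect between 2 strains 0 were called, with 2 at an unadjusted p below 0.05, and DESeq2 called 0. Among all genes these tests called 0.318%, 0.0% and 0.0% for MRL/MpJ against C57BL/6 at 1D, 1W and 2W, 2.66%, 0.491% and 0.0462% for STR/ort against C57BL/6, and 0.162%, 0.884% and 0.451% for STR/ort against MRL/MpJ. A missed threshold does not show that the strains respond alike. The 18 interferon-stimulated genes and the 20 restriction factor genes used for comparison had 0 called in each of the 9 injury comparisons, while in the list of 15 interferon receptor and signalling genes the called ones were Socs3 and Socs1, feedback inhibitors of cytokine signalling. Socs3 rose at 1D by 1.67 in MRL/MpJ, 1.254 in C57BL/6 and 1.41 in STR/ort on the log2 scale.

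Trim12c, Trim30a, Trim30d, Trim34a and Trim21 were each called lower in STR/ort than in C57BL/6 in some combinations of time and joint, and Trim12a and Trim5 were called in none. Of 49 comparisons, 28 had an adjusted p below 0.05 and 13 were called, each of the called ones lower in STR/ort. Of the 49 log2 differences 44 were below 0. The called genes were 1 of 7 at 0D (13.8% of all genes called, 5.99% lower), 0 in uninjured joints at 1D (10.5%, 4.74% lower), 0 in injured joints at 1D (12.4%, 7.48% lower), 3 in uninjured joints at 1W (22.2%, 9.12% lower), 5 in injured joints at 1W (25.1%, 11.8% lower), 2 in uninjured joints at 2W (9.78%, 4.86% lower) and 2 in injured joints at 2W (10.4%, 4.96% lower). The member median log2 difference was −0.37 at 0D, −0.26 and −0.15 in uninjured and injured joints at 1D, −0.51 and −0.73 at 1W, and −0.41 and −0.43 at 2W, while the median over all genes lay between −0.055 and 0.013. At 1D, 0 of 14 were called although 8 had an unadjusted p below 0.05. With 1 factor of unwanted variation removed (RUVg), 5 of these 14 were called lower, Trim30a and Trim30d in both joints and Trim34a in injured joints (−0.74 to −0.63), and DESeq2 called 0. Without overlap, STR/ort lay below C57BL/6 in 3 of 7 genes at 0D (15.1% of all genes), in 2 and 0 in uninjured and injured joints at 1D (7.55% and 8.1%), in 4 and 6 at 1W (15.0% and 15.1%) and in 3 and 1 at 2W (9.06% and 9.46%). The injured and uninjured joints of a strain are not independent where they come from the same animals.

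Trim12c was called in injured joints at 1W. Its levels there were 41.3, 41.4, 32.5, 44.7 and 41.8 CPM in STR/ort and 78.7, 79.5, 69.3, 79.7 and 76.4 CPM in C57BL/6. The groups did not overlap, and the log2 difference was −0.94 (SE 0.08, adjusted p = 2.25e-10). In the other 6 combinations it lay between −0.49 and −0.15 and was not called, except under RUVg in uninjured joints at 1W (−0.64).

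Trim30a, the regulator of Toll-like receptor signalling, was lower in STR/ort at 1W. In injured joints it was at 38.0, 30.7, 25.8, 35.2 and 34.0 CPM in STR/ort and 54.7, 58.0, 55.3, 55.02 and 61.0 CPM in C57BL/6, a difference of −0.81 (SE 0.10, adjusted p = 2.06e-07). In uninjured joints it was at 47.9, 32.0, 33.6 and 42.8 CPM against 55.3, 66.7, 54.4, 61.5 and 72.8 CPM, a difference of −0.65 (SE 0.11, adjusted p = 1.98e-05). Both pairs of groups were apart. Without replicate 2 of the uninjured STR/ort joints at 1W the difference was −0.57 and the call was lost.

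Trim30d and Trim34a were called in the 4 combinations of 1W and 2W. In injured joints at 2W Trim30d was at 8.93, 9.82, 10.5, 15.2 and 11.4 CPM in STR/ort and at 20.5, 19.6, 17.6, 21.3 and 21.6 CPM in C57BL/6 (−0.85, SE 0.13, adjusted p = 1.3e-05). In uninjured joints at 2W the difference was −0.84 (SE 0.13, adjusted p = 1.72e-05), and at 1W it was −0.80 (SE 0.17, adjusted p = 0.000405) in uninjured and −0.84 (SE 0.16, adjusted p = 8.45e-05) in injured joints. The lowest C57BL/6 library of Trim30d lay above the highest STR/ort library in each of these 4 combinations.

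Trim34a in injured joints at 2W was at 4.82, 5.79, 5.85, 11.9 and 10.8 CPM in STR/ort and 11.8, 13.7, 15.0, 16.8 and 15.3 CPM in C57BL/6. The highest STR/ort library overlapped the lowest C57BL/6 library, and the difference was −0.89 (SE 0.19, adjusted p = 0.000703). In uninjured joints at 2W it was −0.80 (SE 0.19, adjusted p = 0.00245). At 1W it was −0.72 (SE 0.14, adjusted p = 0.000112) in uninjured and −0.73 (SE 0.13, adjusted p = 3.28e-05) in injured joints.

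Trim21, the antibody receptor, was called at 0D and in injured joints at 1W. At 0D it was at 18.1, 17.2, 14.7 and 13.5 CPM in STR/ort and 23.4, 25.1, 23.7 and 22.4 CPM in C57BL/6, without overlap (−0.61, SE 0.10, adjusted p = 0.000144). In injured joints at 1W it was at 16.4, 12.9, 16.0, 14.8 and 13.5 CPM in STR/ort and 27.3, 19.0, 18.8, 21.6 and 23.6 CPM in C57BL/6 (−0.59, SE 0.11, adjusted p = 5.19e-05). Both differences were close to the fold of 1.5, and both calls were lost with RLE size factors and with DESeq2. The 0D call was also lost with RUVg and with the compared groups only (a difference as small as −0.45), and without any 1 of 4 libraries (C57BL/6 replicate 2, MRL/MpJ replicate 2, and STR/ort replicates 3 and 4, with differences of −0.54 to −0.58). The 1W call was lost without C57BL/6 replicate 1 or 5, or without STR/ort replicate 2 or 5.

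Trim12a and Trim5, the genes near 0 in MRL/MpJ, were not called in any comparison of STR/ort with C57BL/6. Trim12a ranged from −0.52 to 0.15 over the 7 combinations. Its lowest value was in injured joints at 1W, where it was at 32.2, 33.4, 28.0, 37.0 and 35.0 CPM in STR/ort and 51.0, 50.9, 46.1, 47.1 and 39.3 CPM in C57BL/6, without overlap (−0.52, SE 0.12, adjusted p = 0.000896), and under the fold of 1.5. Trim5 ranged from −0.54 to 0.58 and was higher in STR/ort in uninjured joints at 1D, at 4.52, 4.09, 3.27, 2.92 and 3.63 CPM against 3.14, 3.22, 2.62, 2.07 and 1.61 CPM in C57BL/6 (adjusted p = 0.0453), which is just under the fold of 1.5. The groups overlapped. It was called higher in STR/ort (0.58 to 0.69) when any 1 of 5 libraries was left out, C57BL/6 replicate 1 or 2 or STR/ort replicate 3 or 4 of the uninjured joints, or MRL/MpJ replicate 3 of the injured joints.

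**Figure D2:**
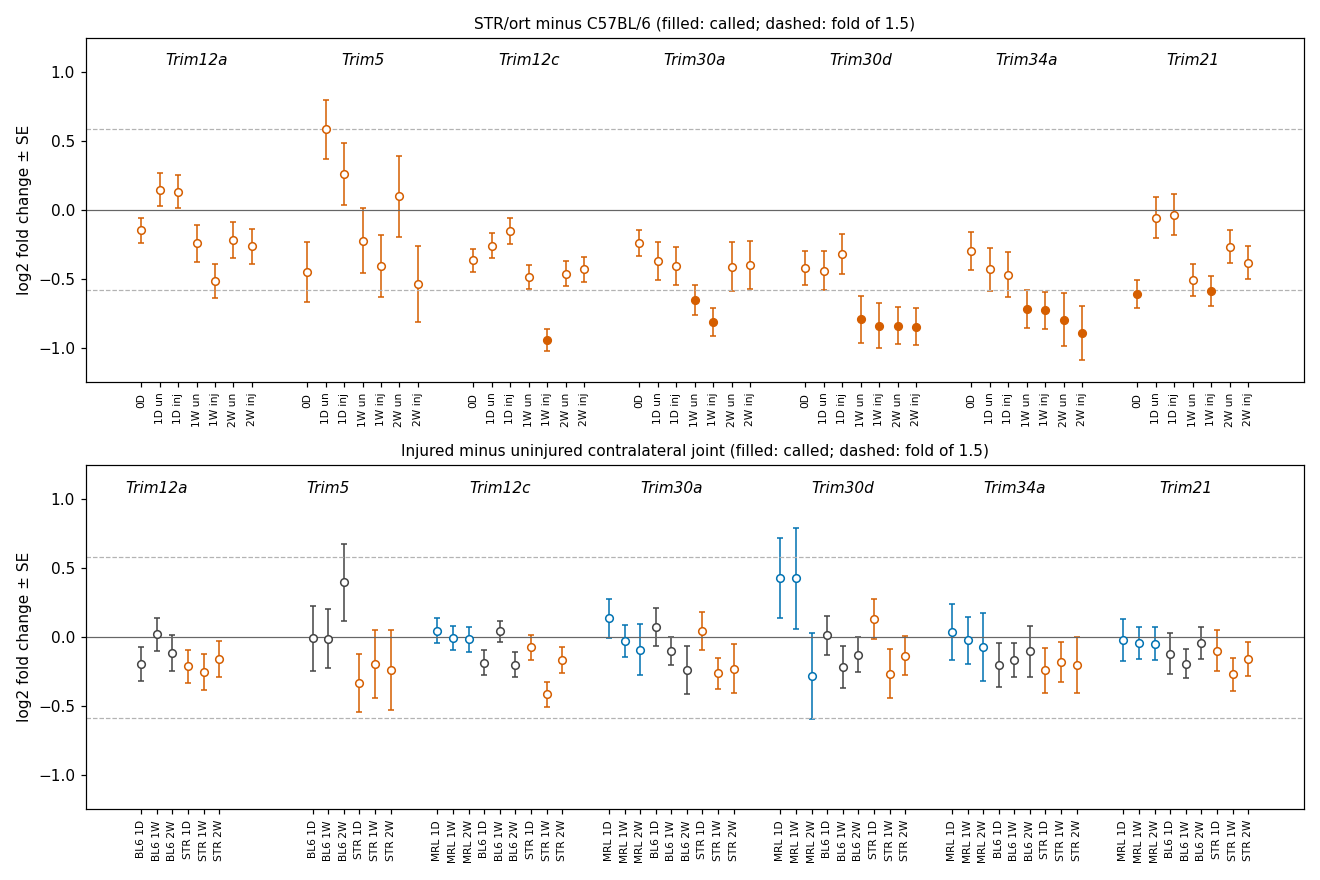
Log2 fold change ± SE of each gene for STR/ort minus C57BL/6 (top, by time and joint) and for injured minus uninjured joints (bottom, by strain and time), with filled points for called comparisons and dashed lines at a fold of 1.5. The 13 filled points are all below 0 in the upper panel, from Trim12c at −0.94 to Trim21 at −0.59, and the lower panel has none.

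Most of the interferon-stimulated genes were called lower in STR/ort at 1D, 1W and 2W, including 1D, where no member was. Of 18 such genes the numbers called lower and higher in STR/ort were 6 and 1 at 0D, 10 and 1 in uninjured joints at 1D, 13 and 0 in injured joints at 1D, 12 and 1 in uninjured joints at 1W, 14 and 1 in injured joints at 1W, 13 and 0 in uninjured joints at 2W, and 12 and 0 in injured joints at 2W. In injured joints at 1W, for example, Isg15, a ubiquitin-like modifier, differed by −2.03, Rsad2 by −1.79, Cmpk2 by −1.70 and Ifih1, a sensor of double-stranded RNA, by −1.06. Of 20 other restriction factor genes 13 were called lower and 1 higher there. In the signalling list of 15 genes Irf8 was lower (−0.65) and Socs3 (1.33) and Socs1 (0.98) were higher.

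Markers of several blood cells also differed between STR/ort and C57BL/6, at times when members were called and at times when they were not. In injured joints at 1W, 5 of 6 T cell markers, 6 of 6 B cell markers, 4 of 4 erythroid markers, 3 of 5 plasmacytoid dendritic cell markers and 2 of 8 macrophage markers were called lower in STR/ort, and 0 of 8 neutrophil markers were. Of 12 knee joint markers 8 were called higher and 2 lower. In uninjured joints at 1W, 5 T cell, 5 B cell, 4 erythroid and 4 plasmacytoid dendritic cell markers were called lower, and 10 knee joint markers higher. In injured joints at 1W the summed levels in STR/ort against C57BL/6 were 17.9 to 25.9 against 38.0 to 42.2 CPM for T cells, 61.8 to 151.9 against 200.7 to 270.7 CPM for B cells, and 342.4 to 974.2 against 2322 to 3701 CPM for erythroid cells, while the plasmacytoid dendritic cell list summed to 274 to 314.1 against 241.8 to 295.6 CPM, the other direction from its called genes. In injured joints at 1D, where no member was called, B cell markers summed to 183.1 to 295.6 in STR/ort against 149.6 to 191.6 CPM, with 2 of 6 called higher, and erythroid markers to 634.5 to 869.1 against 1788 to 2731 CPM. None of these markers was at 0 in all libraries of a group. At 0D, where Trim21 was called, 3 of 6 T cell and 5 of 8 macrophage markers and 0 of 6 B cell markers were called lower, and in uninjured and injured joints at 2W 4 and 3 of the T cell and 2 and 5 of the B cell markers. The part of these cells in the levels of the TRIM genes was not tested.

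Changes over time were compared within batch 1. Of 57 comparisons of uninjured joints at 1D or 1W with 0D and of injured joints at 1W with 1D, 1 was called, with 16 at an unadjusted p below 0.05 and 7 at an adjusted p below 0.05. Of the latter the other 6 were under the fold of 1.5, among them Trim12c in injured C57BL/6 joints at 1W against 1D (0.43, SE 0.08, adjusted p = 0.000627) and Trim21 in injured STR/ort joints (−0.51, SE 0.17, adjusted p = 0.0265). Trim5 in uninjured STR/ort joints rose from 2.04, 2.25, 1.78 and 2.33 CPM at 0D to 4.52, 4.09, 3.27, 2.92 and 3.63 CPM at 1D, without overlap (0.80, SE 0.23, adjusted p = 0.0127). In that comparison 8.89% of all genes were called and 1.66% were called higher. In the other comparisons of uninjured joints 0.156% (MRL/MpJ) and 0.0462% (C57BL/6) were called at 1D and 0.0%, 5.54% and 12.6% (MRL/MpJ, C57BL/6 and STR/ort) at 1W, and in injured joints 3.52%, 4.35% and 13.0%. With RUVg the difference was 0.58 with an adjusted p of 0.692, and the call was lost.

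At 2W, in batch 2, Trim12a and Trim5 stood at lower levels than at 1W, and batch and time cannot be told apart. In uninjured C57BL/6 joints Trim12a was at 43.0, 49.6, 44.5, 48.1 and 50.1 CPM at 1W and 24.0, 25.1, 22.9, 20.7 and 20.9 CPM at 2W. The 2W mean was 0.483 times the 1W mean there, 0.447 times in injured C57BL/6 joints, and 0.493 and 0.525 times in uninjured and injured STR/ort joints. For Trim5 the ratios were 0.294, 0.393, 0.361 and 0.363 in the same order. In all 8 of these pairs every 2W library lay below every 1W library.

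Trim21 was lower at 2W as well, at 0.618 and 0.629 times the 1W mean in uninjured and injured MRL/MpJ joints, 0.594 and 0.667 times in C57BL/6, without overlap, and 0.706 and 0.766 times in STR/ort, with overlap. Trim30d and Trim34a overlapped between 1W and 2W in every strain and joint, with ratios of 0.991 and 0.961 in uninjured C57BL/6 joints. Trim12c and Trim30a overlapped except in injured C57BL/6 joints, where their 2W libraries lay lower (ratios of 0.819 and 0.789). Among all genes, those with no overlap and lower at 2W were 23.1%, 20.2% and 23.1% in uninjured and 19.4%, 22.0% and 23.6% in injured joints of MRL/MpJ, C57BL/6 and STR/ort.

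Libraries of the same group differed in their interferon-stimulated genes, and some members followed these differences. The list was 18 genes such as Ifit1, Isg15, Oas2 and Irf7 with no member among them. The log2 level of each member and of the list had the mean of its group removed, and the residuals were compared over 55 uninjured and 45 injured libraries (37 and 30 for Trim12a and Trim5, without MRL/MpJ), in 14 relations. Their p values come from 100000 permutations within groups, two-sided, and were adjusted over all 14399 genes compared.

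Trim30a followed the list most closely. Pearson's r was 0.85 in uninjured joints (permutation p = 1e-05, the smallest these permutations can give, adjusted p = 0.00306) and 0.86 in injured joints (permutation p = 1e-05, adjusted p = 0.00369). Spearman's rho was 0.799 and 0.741 (permutation p = 1e-05 for both). Only 13 and 12 of 14399 genes had a higher r. Within batch 1 r was 0.785 and 0.834 and within batch 2 0.944 and 0.899, and by strain it was 0.64 and 0.73 in MRL/MpJ, 0.74 and 0.73 in C57BL/6, and 0.93 and 0.92 in STR/ort. Without the 2 libraries farthest from the median of the list r was 0.774 and 0.847.

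Trim12c had r of 0.67 in uninjured and 0.80 in injured joints (permutation p = 1e-05 for both, adjusted p = 0.00306 and 0.00369), with rho of 0.74 (permutation p = 1e-05) and 0.675 (permutation p = 5e-05). Without the 2 farthest libraries its r was 0.639 and 0.80, and within batches it was 0.566 and 0.751 in batch 1 and 0.866 and 0.862 in batch 2. By strain it lay between 0.596 and 0.904. Trim34a and Trim30d passed the adjusted threshold in uninjured joints, with r of 0.61 (permutation p = 6e-05, adjusted p = 0.0118) and 0.48 (permutation p = 0.0001, adjusted p = 0.0169), but not in injured joints, with r of 0.68 (permutation p = 0.00036, adjusted p = 0.064) and 0.50 (permutation p = 0.00077, adjusted p = 0.115). Their rho in injured joints was 0.536 (permutation p = 0.00226) and 0.465 (permutation p = 0.00294), and r without the 2 farthest libraries was 0.645 and 0.495. Their rho was 0.532 (permutation p = 0.00021) and 0.512 (permutation p = 0.00024) in uninjured joints. Without the 2 farthest libraries these were 0.511 for Trim34a and 0.473 for Trim30d in uninjured joints, with 0.464 and 0.349 within batch 1 and 0.805 and 0.746 within batch 2. By strain (MRL/MpJ, C57BL/6 and STR/ort) r of Trim34a was 0.158, 0.834 and 0.733 in uninjured and 0.548, 0.0451 and 0.814 in injured joints, and that of Trim30d was 0.181, 0.732 and 0.675 in uninjured and 0.078, 0.774 and 0.762 in injured joints.

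Trim21 passed in injured joints, with r of 0.62 (permutation p = 5e-05, adjusted p = 0.0124) and rho of 0.557 (permutation p = 0.00015), and not in uninjured joints, with r of 0.56 (permutation p = 0.0142, adjusted p = 0.217), rho of 0.376 (permutation p = 0.0124) and r of 0.470 without the 2 farthest libraries. Without the 2 farthest libraries its r in injured joints was 0.603, with 0.646 in batch 1 and 0.629 in batch 2. By strain (MRL/MpJ, C57BL/6 and STR/ort) it was 0.546, 0.68 and 0.729 in injured and 0.182, 0.16 and 0.673 in uninjured joints. Trim12a and Trim5 did not pass over all genes. Trim12a had r of 0.56 in uninjured (permutation p = 0.00629, adjusted p = 0.241) and 0.67 in injured joints (permutation p = 0.00092, adjusted p = 0.165). Trim5 had r of 0.45 (permutation p = 0.0344, adjusted p = 0.375) and 0.25 (permutation p = 0.255, adjusted p = 1). Adjusted over the 14 relations alone, as first planned, the permutation p was 0.00808 and 0.00136 for Trim12a and 0.0378 and 0.252 for Trim5. It was below 0.05 for the other members in both joints. In uninjured joints 1.08% of genes had a higher r than Trim12a (without MRL/MpJ) and 1.31% a higher r than Trim30d (all strains). The rho of Trim12a was 0.562 (permutation p = 0.00413) and 0.552 (permutation p = 0.00628), and that of Trim5 0.258 (permutation p = 0.194) and 0.0759 (permutation p = 0.728). Without the 2 farthest libraries r was 0.541 and 0.656 for Trim12a and 0.268 and 0.124 for Trim5, and within batch 1 it was 0.340 and 0.626 for Trim12a and 0.348 and 0.107 for Trim5. Within batch 2 it was 0.859 and 0.822 for Trim12a and 0.573 and 0.427 for Trim5. By strain (C57BL/6 and STR/ort) it was 0.226 and 0.613 in uninjured and 0.314 and 0.81 in injured joints for Trim12a, and 0.0924 and 0.584 in uninjured and −0.30 and 0.41 in injured joints for Trim5. Of all genes 0.833% passed with r above 0 in uninjured and 0.507% in injured joints (0.569% and 0.403% without MRL/MpJ). The median r over all genes was −0.00141 and −0.0124.

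**Figure D3:**
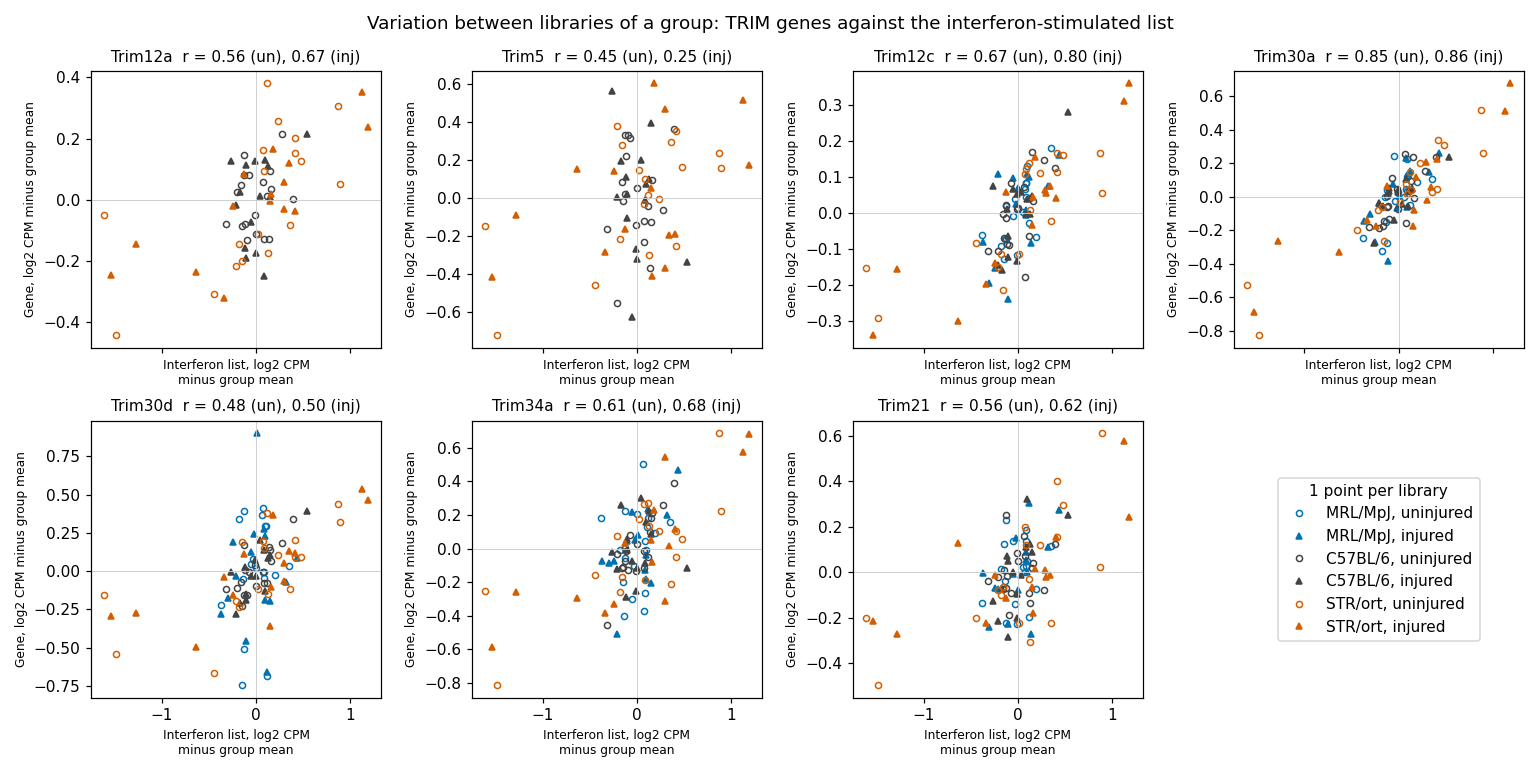
Residual log2 CPM of each gene (vertical axis) against that of the 18 interferon-stimulated genes (horizontal axis) after removal of group means, with 1 point per library, open for uninjured and filled for injured joints. Trim30a rises along the whole range (r = 0.85 and 0.86), Trim5 scatters (0.45 and 0.25), and the 9 points more than 0.6 from 0 in either direction on the horizontal axis are STR/ort libraries.

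The widest variation lay in STR/ort. All 9 libraries whose list mean was more than 0.6 on the log2 scale from the group mean were of this strain, from −1.61 to 1.19. Without these 9 libraries, a choice made after seeing the data, r for Trim30a was 0.72 in uninjured and 0.69 in injured joints, and for Trim12c 0.69 and 0.66. For Trim34a it was 0.39 and 0.41, for Trim30d 0.44 and 0.25, and for Trim21 0.41 and 0.59. Trim12a had 0.55 and 0.39, and Trim5 0.18 and −0.13.

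At 2W, where the labels tie both joints to an animal, the STR/ort animals differed alike in both joints. The summed interferon-stimulated level of the 5 animals was 190.8, 262.5, 387.2, 449.2 and 399.6 CPM in uninjured joints and 170.6, 220.6, 308.9, 436.5 and 328.6 CPM in injured joints, so that animal 1 was lowest and animal 4 highest in both. Trim30a was at 21.2, 35.8, 39.0, 54.1 and 47.9 CPM in uninjured and 19.99, 28.6, 31.9, 51.8 and 37.4 CPM in injured joints of the same animals, and in both joints the animals stood in the same order as for the list.

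Over the 15 animals of 2W the list correlated between the 2 joints, after removal of group means, with r of 0.969 (permutation p = 0.00369), rho of 0.779 (permutation p = 0.0244) and r of 0.811 without the 2 animals farthest from the median. Trim34a had r of 0.782 (permutation p = 0.0014) and rho of 0.718 (permutation p = 0.0081), but an adjusted p of 0.247 over 14416 genes, and no gene passed an adjusted p of 0.05. Trim30a had r of 0.729 (permutation p = 0.0749) and rho of 0.393 (permutation p = 0.241), and r of −0.0484 without the 2 farthest animals, so that its relation rested on those. Without the 2 farthest animals Trim34a had r of 0.476, Trim12c 0.337, Trim30d 0.36, Trim21 −0.18, Trim12a 0.166 and Trim5 −0.66. The median r over all genes was 0.0973 over 15 animals and 0.331 over the 10 animals without MRL/MpJ. Trim12c had r of 0.653 (permutation p = 0.0901), Trim12a 0.551 over 10 animals (permutation p = 0.198), Trim30d 0.333 (permutation p = 0.337), Trim21 0.147 (permutation p = 0.646) and Trim5 −0.07 over 10 animals (permutation p = 0.858).

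The residuals of immune cell marker lists were compared in the same way. Over uninjured and injured libraries the T cell list correlated with the interferon-stimulated list at 0.53 and 0.34 and with Trim30a at 0.63 and 0.47. The macrophage list had 0.43 and 0.13 with the interferon-stimulated list and 0.46 and 0.34 with Trim30a, and the plasmacytoid dendritic cell list had 0.15 and 0.37 with the interferon-stimulated list and 0.22 and 0.62 with Trim30a. The B cell list had 0.22 and 0.23 with the interferon-stimulated list, the neutrophil list 0.0336 and 0.0463, and the erythroid list −0.14 and −0.38. With Trim30a the B cell list had 0.37 and 0.46, the neutrophil list 0.20 and 0.31, and the erythroid list −0.19 and −0.32. These are descriptions over the same libraries, and the part of these cells was not tested. By strain the interferon-stimulated genes summed to 282.8 to 538.1 CPM in MRL/MpJ (median 403.4), 541.7 to 1066 in C57BL/6 (739.6) and 170.6 to 775.6 in STR/ort (403.2).

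The 8 other TRIM genes of this chromosome that were examined had strain patterns of their own. Going along the chromosome, Trim68 (102677579 to 102687335) was highest in MRL/MpJ, with medians of 11.6, 7.83 and 3.95 CPM in MRL/MpJ, C57BL/6 and STR/ort, and was called lower in STR/ort than in C57BL/6 in all 7 combinations (−1.16 to −0.66). Trim6 was called higher in STR/ort at 2W, by 2.22 in uninjured and 1.61 in injured joints, and in injured joints at 1D by 0.76. Trim34b, between Trim12a and Trim12c, was the reverse of its neighbour Trim12a, with medians of 1.34, 0.087 and 0.0996 CPM. Trim30b had medians of 7.12, 16.9 and 13.6 CPM, and MRL/MpJ lay below both other strains without overlap in 6 of 7 combinations. All MRL/MpJ libraries lay above all others in 7 of 7 combinations for Trim34b and for Trim68, against 8.43% of all genes at 0D, 8.11% and 6.82% in uninjured and injured joints at 1D, 4.02% and 3.46% at 1W, and 4.16% and 3.37% at 2W. Trim30c had medians of 1.37, 0.64 and 0.209 CPM. Trim3 was called higher in STR/ort at 1W (0.86 in uninjured and 0.84 in injured joints) and Trim66 lower at 0D (−1.39).

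**Figure D4:**
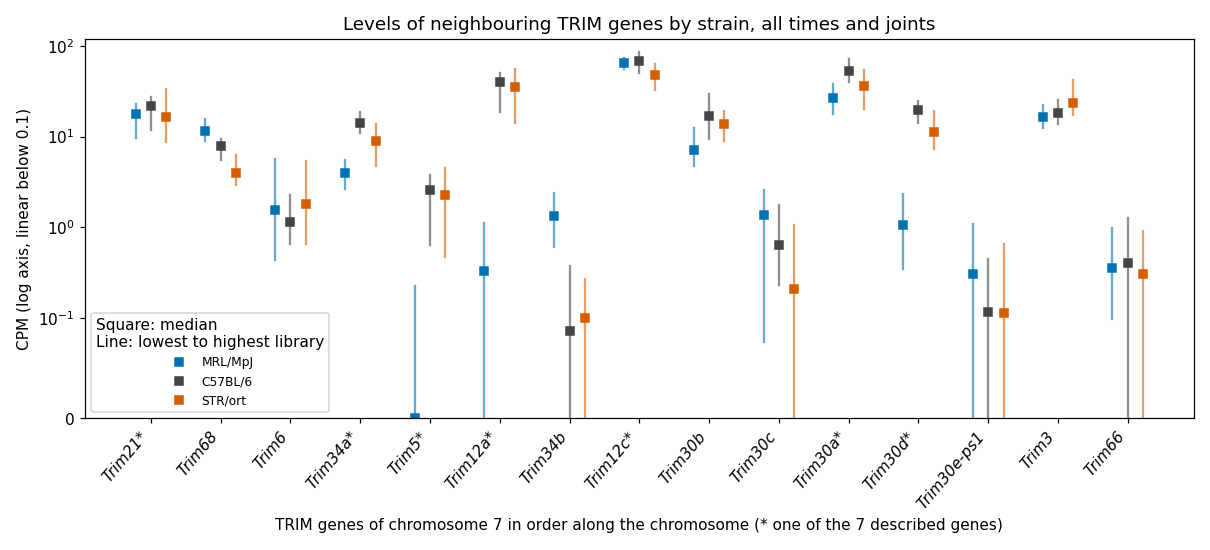
Level in CPM of the 7 genes (asterisks) and of 8 other TRIM genes of chromosome 7, in their order along it. The vertical axis is logarithmic above 0.1 and linear below. Squares mark the median of each strain over all times and joints, and lines run from the lowest to the highest library. In MRL/MpJ the medians of Trim5 (0), Trim12a (0.325) and Trim30d (1.06) drop below those of the other strains, Trim12c (65.0) does not, and Trim34b (1.34) stands above them.

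Between the outermost members the table listed 12 other genes, of which 4 were called in STR/ort against C57BL/6 at 0D: Trim68 (−1.16), the olfactory receptor genes Olfr78 (1.52) and Olfr629 (4.65), and Trim30c (−1.22). Of the 8 other TRIM genes examined, 1 was called after injury in MRL/MpJ, Trim6 at 1D (0.97, adjusted p = 0.0327). In STR/ort 1 was called, Trim30b at 1W (−0.65, adjusted p = 0.00123).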

How the data were processed

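The data are 100 RNA-seq libraries of whole knee joints. The deposited values are raw, unnormalized counts per RefSeq gene, which the authors obtained with featureCounts after alignment to mm10 by TopHat2 2.0.11. Read length, strandedness and the treatment of reads with several placements are not given in the sources used here. The table lists 17313 genes, and 3 repeated entries were dropped. Requiring 2 counts or more in 5 or more libraries dropped 0 genes. Among 190 pairs of replicates 0 had identical counts.

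The test was the quasi-likelihood test of edgeR 4.0.16 in R 4.3.3, with TMM scaling and Benjamini-Hochberg adjustment over 17310 genes. A gene was called at an adjusted p below 0.05 and a fold above 1.5. The 0D libraries entered 1 fit, each later time point another with 6 groups, and changes over time 1 fit per strain within batch 1. The SE of a log2 fold change is its size over the root of F, and 2 was the prior count for log2 CPM. Alternatives were RLE size factors, RUVg with 1 factor from 25 housekeeping genes, DESeq2 (version 1.42.0), filterByExpr, the compared groups only, a block by replicate number, and each library left out in turn. In simulated data for the 4 time points 89 to 99% of genes changed 2-fold were recovered with 2 to 8 false calls.

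Named genes were the 7 members and 8 other TRIM genes of chromosome 7, not all TRIM genes of that chromosome. Of each comparison list at most 4 called genes with the smallest adjusted p were named. Also named were the 5 genes most like Trim12a and Trim5, and called genes between the outermost members. The members and lists were chosen with earlier results of these data known. Sequences came from RefSeq and GENCODE (GRCm38). A second motif was searched in the same windows and is not reported here.

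Pairing of same-numbered joints was checked from how far their deviations from group means correlated. The labels name the animal at 2W, where the median correlation was 0.244 in C57BL/6, −0.172 in MRL/MpJ and 0.37 in STR/ort. At 1W all 4 pairs of STR/ort were above 0.1 (0.162 to 0.372), and elsewhere the joints shared only a number.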

Additional observations from a re-analysis of the deposited data

Results flagged for a closer look

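In groups of 4 or 5 libraries, 9 of 142 gene-by-group sets (6.34%) had 1 library far from the others by Dixon's criterion. Chance gives about 1 in 20, but a set with counts in a single library is always flagged. Both Trim5 sets of MRL/MpJ below are of this kind, so nothing is read from the share. Trim12a was high in replicate 4 of C57BL/6 at 0D, at 48.8 CPM against 39.5 to 40.5 in the others. Trim12c was low in replicate 3 of the injured STR/ort joints at 1W, at 32.5 CPM against 41.3 to 44.7, and the interferon-stimulated list of the same library was 0.63 below its group mean on the log2 scale (−0.63). Trim5 had its only MRL/MpJ counts in replicate 1 of the uninjured joints at 1W, at 0.226 CPM, and in replicate 2 of the injured joints at 2W, at 0.0916 CPM, with 0 in the other libraries of both groups. Trim30a was low in replicate 2 of the injured C57BL/6 joints at 2W, at 40.6 CPM against 45.4 to 46.2.

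Trim30d and Trim34a were both high in replicate 2 of the uninjured C57BL/6 joints at 1D, at 20.7 CPM against 14.6 to 16.3 and at 17.9 CPM against 12.5 to 13.3. Trim34a was high in replicate 3 of the injured C57BL/6 joints at 1D, at 14.3 CPM against 11.01 to 11.9. Trim21 was high in replicate 2 of the injured STR/ort joints at 1D, at 31.1 CPM against 17.2 to 20.6, and the interferon-stimulated list of that library was 1.12 above its group mean.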

How the results depend on the processing

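The count of injury calls was 0 under RLE size factors, RUVg, filterByExpr, DESeq2, the replicate block and in every fit without 1 library (range 0 to 0), and so was the count of interaction calls (0 to 0). Calls of STR/ort against C57BL/6 numbered 13, with 11 under RLE size factors and under DESeq2, 18 under RUVg (5 of them at 1D, where there were 0, and Trim12c in uninjured joints at 1W), 13 under filterByExpr, 12 with the compared groups only, and 12 to 14 without 1 library. The 1 call over time became 0 under RUVg and lay between 1 and 2 without 1 library, the second being Trim5 in injured STR/ort joints at 1W against 1D without replicate 4 at 1W (−0.59). The replicate block gave 0 injury calls, with 13 at an unadjusted p below 0.05, and 0 interaction calls, with 7, so that pairing changed no call. A fit without the 9 libraries far from their group mean was added after seeing the data. The correlation with the interferon-stimulated list was then 0.18 for Trim5 in uninjured joints. In injured joints it was 0.39 for Trim12a, 0.25 for Trim30d, 0.41 for Trim34a and −0.13 for Trim5, whose sign reversed. These are the relations whose permutation p, adjusted over the 14 relations alone, was above 0.05 without those libraries. With all libraries only Trim5 in injured joints was above it. The cause was not tested. Besides the Trim5 comparison at 1D, leaving out 1 STR/ort library added a call for Trim21 in uninjured joints at 1W (−0.62, without replicate 1), Trim30a in injured joints at 2W (−0.60, without replicate 4), Trim34a in injured joints at 1D (−0.63, without replicate 2) and Trim5 in injured joints at 1W (−0.60, without replicate 4). The mean level of Trim12a in MRL/MpJ was 0.316 CPM, 0.307 without TMM and 0.315 with RLE. Counts of Trim5 were low in every strain, which limits its comparisons.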
